A study of Mus musculus with 3 samples.

Results

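The genes described here are 10 transcription regulators of the mammalian circadian clock: the nuclear receptor genes Nr1d1 and Nr1d2, the period genes Per1, Per2 and Per3, the PAR bZIP genes Dbp, Tef and Hlf, and the activator genes Arntl (also written Bmal1) and Npas2. They were chosen by name, and found as probe sets whose platform annotation gives one of these symbols. Of the 10 genes, 9 had a probe set of their own, among 22180 named genes in all. The probe set of Per2 is annotated to a second gene as well, 9830107B12Rik, so its signal cannot be assigned and Per2 is in none of the counts below.

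RNA was read on 3 whole-transcript arrays, 1 for each group: lung of FVB mice given saline, lung of FVB mice given urethane, and cultured FULA 1 cells. FVB is an inbred strain prone to lung tumours, and urethane is a carcinogen that gives lung adenomas in mice; the study's title places the urethane lung 1 week after an intraperitoneal injection. The cultured cells come from a mouse adenocarcinoma of the lung and were grown in DMEM with 10% fetal bovine serum at 37 °C and 5% CO2, per the labels. The age and number of the mice, when the saline lung was taken, the time of day at which lungs and cells were collected, and whether the line is 1 clone are not stated in the labels. With 1 array per group there was no replicate spread to set a difference against and no test was possible, so each statement compares these arrays and not the conditions.

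The circadian clock is a transcriptional feedback loop that runs in most cells. BMAL1, the product of Arntl, pairs with CLOCK or with its paralogue NPAS2 and activates genes that carry E-boxes, among them the Per, Cry, Nr1d1, Nr1d2 and Dbp genes; PER and CRY proteins then inhibit the activators. NR1D1 and NR1D2 (REV-ERB alpha and beta) repress Arntl and Npas2 through ROR elements, which the ROR receptors activate, and DBP, TEF and HLF bind D-boxes in output genes, where NFIL3 opposes them. In mouse lung and other peripheral tissues the transcripts of the activator arm and those of the repressor and PAR bZIP arm peak at different times of day. Per1 is also induced by glucocorticoids and by cAMP.

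Promoter sequences show which of these elements lie within the 250 bases before the start of each gene. RefSeq promoters (GRCm38.p6) matched 9 of the 10 genes, Per2 being the exception, with 12 promoters in all since Per1, Tef and Arntl have 2 starts each. The 250 bases before each start were searched on both strands for the E-box CACGTG, the D-box letters TTATGTAA and TTACGTAA, the ROR element half-sites TAGGTCA and TGGGTCA, and the cAMP response element TGACGTCA. The promoters shown are those of the gene with the largest difference between the lungs (Per1, first start), of the genes with the largest differences between FULA 1 and the saline lung in each direction (Hlf lower; Arntl higher, first start), and of Per3, added after the search because it held a pair of D-boxes. Capitals mark the matches.
Per1 (chr11:69098699-69098948, plus strand): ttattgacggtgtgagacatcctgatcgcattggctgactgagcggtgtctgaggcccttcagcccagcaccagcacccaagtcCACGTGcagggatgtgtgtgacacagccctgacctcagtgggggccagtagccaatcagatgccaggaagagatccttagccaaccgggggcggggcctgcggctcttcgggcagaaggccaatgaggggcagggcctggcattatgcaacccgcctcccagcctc
Hlf (chr11:90390918-90391167, minus strand): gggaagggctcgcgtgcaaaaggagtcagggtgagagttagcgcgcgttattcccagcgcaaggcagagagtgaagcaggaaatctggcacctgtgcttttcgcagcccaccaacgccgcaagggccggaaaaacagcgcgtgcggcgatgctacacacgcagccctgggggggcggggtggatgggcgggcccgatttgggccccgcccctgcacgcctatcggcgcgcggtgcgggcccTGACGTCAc
Arntl (chr7:113207215-113207464, plus strand): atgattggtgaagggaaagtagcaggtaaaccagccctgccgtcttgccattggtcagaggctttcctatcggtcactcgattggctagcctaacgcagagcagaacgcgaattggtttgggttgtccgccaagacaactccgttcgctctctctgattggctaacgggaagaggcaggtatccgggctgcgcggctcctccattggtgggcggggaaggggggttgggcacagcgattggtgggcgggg
Per3 (chr4:151044666-151044915, minus strand): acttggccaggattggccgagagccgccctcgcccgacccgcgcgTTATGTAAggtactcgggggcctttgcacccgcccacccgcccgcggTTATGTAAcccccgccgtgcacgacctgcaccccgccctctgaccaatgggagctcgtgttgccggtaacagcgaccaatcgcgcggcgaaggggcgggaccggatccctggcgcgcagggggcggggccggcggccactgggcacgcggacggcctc

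The E-box in the Per1 promoter lies at -166 to -161 from the start. Both Tef promoters also held one, at -127 to -122 and at -138 to -133. So 3 of the 12 promoters, from 2 of 9 genes, carried an E-box in this window, while 6.02% of all 32851 promoters did. The Per3 D-boxes lie at -205 to -198 and -158 to -151, and 0.931% of all promoters held a D-box. The Hlf promoter holds a cAMP response element at -9 to -2, next to the start; 1.55% of all promoters held one. No ROR half-site was in the 12 windows, against 5.38% of all promoters. No match of one element overlapped that of another. A match is a string of letters and not a binding site. These windows leave out more distant elements and all bases at or after the start. A window without a match therefore does not show that a gene lacks the element.

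The scales of the deposited columns differed: over 41345 probe sets the median was 4.96 (log2) for FULA 1, 0.08 for saline and 1.22 for urethane. The levels given below were therefore quantile-normalized over the 3 arrays, and each gene also has a percentile rank among all genes of its own array, taken from the normalized values. As a mark of background the 95th percentile of 1105 olfactory receptor genes was used, which lay at 1.96 on FULA 1, 2.46 on the saline array and 2.44 on the urethane array. All 9 genes lay above the mark on FULA 1 and in saline lung, and all except Npas2 did in urethane lung. Of all 22180 genes, 12913 lay above it on FULA 1, 10985 in saline lung and 10838 in urethane lung. A gene was counted as higher or lower when it differed by at least 2-fold and its higher value was at or above a floor. This floor was 2.37, the median of all gene values, and all 9 passed it in each comparison. Shares given beside a count are over the genes past the floor, while a gene list is counted over all its measured genes. On the values as deposited all 9 were higher on FULA 1 than on the saline lung, but so were 99.5% of all genes past the floor at 2-fold, so these values carry no direction for a single gene.

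**Figure D1:**
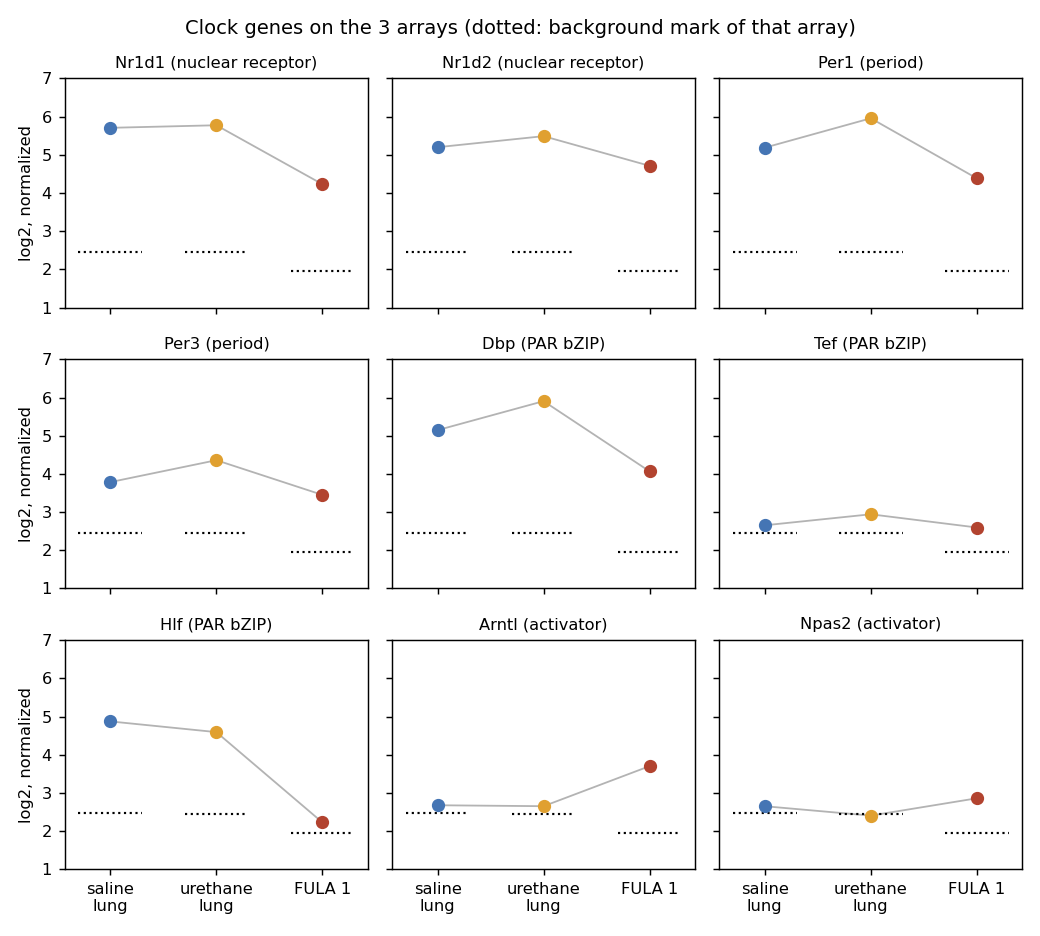
Each panel plots 1 clock gene, with the quantile-normalized log2 value on the y axis and the 3 arrays on the x axis; a point is 1 array, and the dotted bar is the background mark of that array. On this scale Nr1d1, Dbp and Hlf are lower on FULA 1 than on both lungs, Arntl is higher there, and Per1 and Dbp stand highest on the urethane lung. Of these lower genes, Hlf alone stays below both lungs when the arrays are only shifted to a common median.

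FULA 1 cells had lower levels of Hlf, Nr1d1 and Dbp than the saline lung and a higher level of Arntl; with a common median Dbp turned. Hlf was lower by 2.65 (log2, 6.26-fold), Nr1d1 by 1.48 (2.78-fold) and Dbp by 1.08 (2.11-fold), while Arntl was higher by 1.02 (2.03-fold). All 7 measured genes of the nuclear receptor, period and PAR bZIP groups lay below 0 and both activators above it. Of the 7, Tef was at only -0.06, the mean of 2 probe sets of opposite sign. With the arrays only shifted to a common median, Nr1d1 and Hlf alone stayed below 0. In all, 3 of the 9 genes were at least 2-fold lower, where 22.0% of all genes past the floor were, and 1 was at least 2-fold higher, where 22.6% were. Over all genes this split was 3073 higher to 2994 lower, and it became 7058 to 1785 with a common median and 2142 to 3010 after the lowess curve. The median over the 9 genes was -0.49, against 0.02 over all genes past the floor. Counts of this size are close to the background of this comparison. Cultured cells are set here against a tissue of many cell types, and in such bulk RNA fewer cells of a type and less RNA per cell cannot be told apart.

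Hlf, whose product was first known as a fusion partner in leukaemia, had the widest range of the 9 genes. Its normalized value was 2.23 on FULA 1, 4.88 with saline and 4.59 with urethane, and its percentile rank 48.8, 89.3 and 87.2. It was thus near the middle of all genes and just above the mark in the cell line, and well above it in both lungs. Of all genes past the floor, 2.72% lay as low or lower in FULA 1 against the saline lung. Its difference stayed below 0 under each other setting except the values as deposited, from -3.61 to -1.996.

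Nr1d1 encodes the heme-binding repressor REV-ERB alpha. Its normalized value was 4.23 on FULA 1, 5.71 in saline-treated lung and 5.77 in urethane-treated lung, at ranks 81.6, 94.4 and 94.8. The lungs were nearly equal and the cell line stood apart, but this distance depends on the scale, shrinking to -0.03 with a common median. Its paralogue Nr1d2 followed the same order, with FULA 1 nearer to the lungs, at 4.71, 5.20 and 5.49, and ranks of 86.8, 91.6 and 93.4.

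Dbp, an output gene that is among the most strongly cycling transcripts of peripheral tissues, was at 4.07 on FULA 1, 5.15 on the saline array and 5.91 on the urethane array. Its ranks were 79.6, 91.3 and 95.3, highest on the urethane lung. With a common median the difference between FULA 1 and the saline lung turned to 0.47. Tef, the third PAR bZIP gene, was at 2.60, 2.65 and 2.94, only a little above the mark of the lungs, and its 2 probe sets went opposite ways. The first gave a difference of -1.12 between FULA 1 and the saline lung, and the second one of 1.01. In the second the saline value, 1.57, lay below the mark. The mean of Tef also turned with the quantiles of FULA 1 as the target. Its ranks were 56.5, 55.6 and 63.2, with FULA 1 above the saline lung, so Tef has no settled direction.

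Per1, the period gene that also responds to acute signals, was at 4.38 on FULA 1, 5.19 with saline and 5.96 with urethane, with ranks of 83.3, 91.5 and 95.5. Per3, a period gene dispensable for the core rhythm, was at 3.45, 3.79 and 4.36, with ranks of 70.6, 77.5 and 84.7. Both had the same order of arrays: FULA 1, then saline, then urethane. Against the saline lung, Per1 was at -0.80 and Per3 at -0.33 on FULA 1, short of 2-fold. The probe set annotated to both Per2 and 9830107B12Rik was at 3.19 on FULA 1, 4.35 in saline-treated lung and 4.29 in urethane-treated lung, and which of the genes gave this signal is not known.

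Arntl, the gene of the indispensable activator BMAL1, was at 3.70 on FULA 1, 2.68 on the saline array and 2.66 on the urethane array. Its ranks were 74.6, 56.1 and 56.6. Both lungs lay just above the mark, and the cell line lay clear of it. The values as deposited, where all 9 genes were higher, gave a difference of 7.09 between FULA 1 and the saline lung. Under the 6 other settings it was above 0, from 0.61 to 2.20. It was short of 2-fold under 2 of them, the lowess curve and the quantiles of the saline lung. The highest probe set and values held at the mark could not change it, as Arntl has 1 probe set above the mark. Npas2, the partner that can replace CLOCK, was at 2.86, 2.65 and 2.41, and below the mark on the urethane lung. It was higher on FULA 1 than on the saline lung by 0.21.

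Against the urethane lung, FULA 1 had lower Hlf, Dbp, Per1 and Nr1d1 and higher Arntl. Hlf was lower by 2.37 (5.15-fold), Dbp by 1.84 (3.58-fold), Per1 by 1.57 (2.98-fold) and Nr1d1 by 1.54 (2.92-fold), and Arntl was higher by 1.05 (2.07-fold). With a common median Per1 and Nr1d1 turned to 0.11 and 0.12, and Dbp shrank to -0.18 and lost its call. So 4 of the 9 genes were at least 2-fold lower, with a background of 19.5%, and 1 was at least 2-fold higher, with one of 22.1%. The split over all genes, 2930 higher to 2581 lower, became 7154 to 1558 with a common median. The median of the 9 was -0.91, against 0.07 over all genes past the floor. Both FULA 1 comparisons share the FULA 1 array, so they are not independent of each other. Of all genes past the floor, 6.22% lay as low as Dbp or lower, and 8.72% as low as Per1 or lower.

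**Figure D2:**
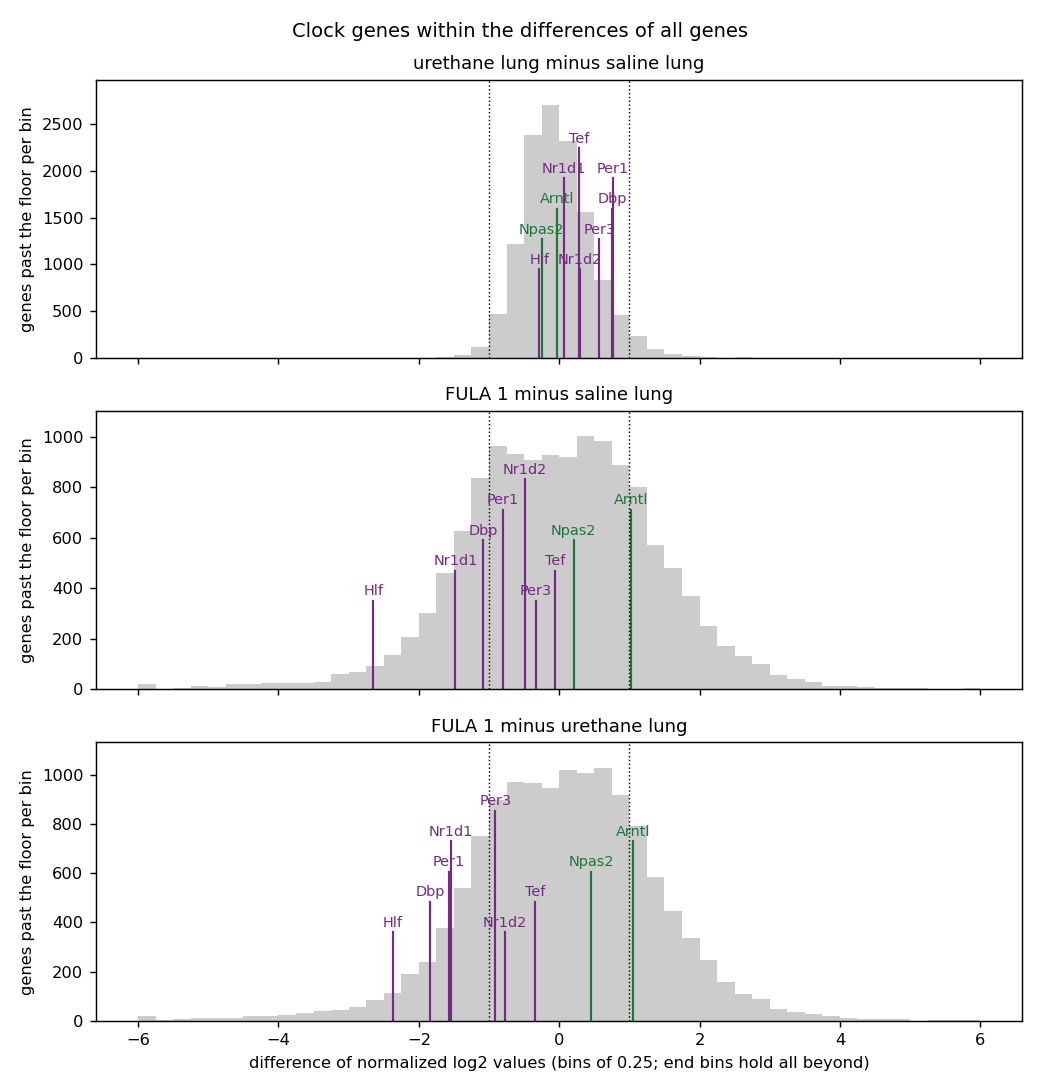
The grey bars count all genes past the floor by their difference of normalized log2 values in each comparison; coloured lines place the 9 clock genes, with activators in green and the others in purple, and dotted lines mark 2-fold. Hlf lies in the low tail of both FULA 1 comparisons, Arntl just past 2-fold on the high side, and all 9 genes lie inside 2-fold between the lungs.

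Between the lungs no clock gene differed by 2-fold. Per1 was higher in the urethane lung by 0.77 (1.71-fold), Dbp by 0.76 (1.69-fold) and Per3 by 0.57 (1.49-fold), while Hlf was lower by 0.28 and Npas2 by 0.25, or by 0.21 with the mark as its urethane value. The count was 0 of 9 in each direction, where 3.27% of all genes past the floor were higher and 1.31% lower. That split, 409 higher to 164 lower over all genes, became 215 to 203 with a common median, 979 to 897 with the quantiles of FULA 1 and 233 to 35 after the lowess curve. As deposited all 9 clock genes lay above 0, where the median of all genes was 1.09. At 1.5-fold 2 of the 9 genes, Per1 and Dbp, were higher and 0 were lower. The shares of all genes past the floor were 11.0% and 10.7%. The median of the 9 genes was 0.29, against -0.07 over all genes past the floor.

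These 3 differences kept their direction under every setting tried, but some settings could not have turned them. As deposited all 9 clock genes lay above 0. The highest probe set and values held at the mark gave the same values again, as each gene has 1 probe set above the mark. Under the 7 settings other than the deposited values Per1 ranged from 0.65 to 0.92 and Dbp from 0.65 to 0.92, and Per3 ranged from 0.52 to 0.67. Of all genes past the floor, 6.63% were as high as Per1 or higher, 6.82% as Dbp and 11.3% as Per3. By percentile rank Per1 was 4.0 points higher in the urethane lung, Dbp 4.05 and Per3 7.14. The only internal measure of error came from 315 genes read by a pair of probe sets, whose differences were a median of 0.43 apart and had the same sign in 53.7% of genes. This gap lies within the same arrays, is no replicate error and cannot separate these differences from chance. For FULA 1 the same gap was 1.05 against the saline lung (378 genes, 60.3% of the same sign). It was 1.00 against the urethane lung (342 genes, 59.1%). The FULA 1 differences of Arntl, at 1.02 and 1.05, and of Dbp against the saline lung, at -1.08, were of about that size.

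Among the other genes of the loop, Nr1d1 and Arntl were nearly level between the lungs. Nr1d1 differed by 0.07, which turned to -0.15 with a common median, and Nr1d2 by 0.29. Arntl differed by -0.02, and its sign turned under 3 of 8 other settings. Tef differed by 0.29, the mean of -0.44 and 1.02 in its 2 probe sets, which disagree in sign. The saline value behind 1.02 was 1.57, below the mark of 2.46. Resolution is limited too, since the urethane value of the second Tef probe set was shared by 639 probe sets. The urethane value of Hlf was shared by 117, that of Npas2 by 66, that of Nr1d2 by 48 and that of Dbp by 41. The saline value of Per3 was shared by 108.

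**Figure D3:**
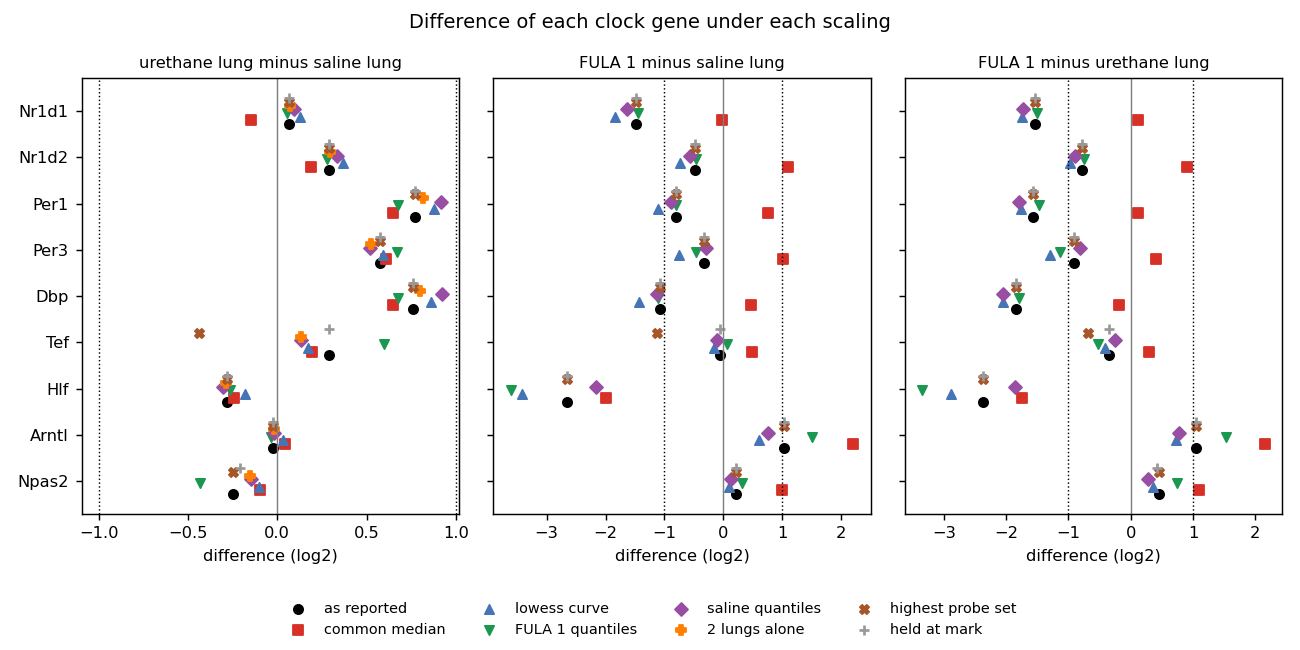
For each clock gene (y axis) the difference in log2 (x axis) is plotted in each of the 3 comparisons under the scaling reported here and the other scalings, without the deposited values, which shift all genes; dotted lines mark 2-fold. Hlf stays below 0 and Arntl above 0 in both FULA 1 comparisons under all scalings shown, Per1, Dbp and Per3 stay above 0 between the lungs, and the common median (red squares) moves most genes of the FULA 1 comparisons to the right.

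The relation of both arms can also be read within an array, where a shift of the whole array drops out. A difference in spread between the arrays stays in such a contrast. This contrast was chosen after the values were seen. In the deposited values Dbp minus Arntl was 0.47 on FULA 1, 2.21 with saline and 2.81 with urethane. Per1 minus Arntl was 0.82, 2.26 and 2.87, and Hlf minus Arntl was -2.30, 1.90 and 1.62. Each contrast was smallest on FULA 1, and Hlf alone of these 3 was larger in the saline lung than in the urethane lung. Over the 14 contrasts of a repressor or PAR bZIP gene with an activator, FULA 1 was the lowest array in 12 as deposited and in 14 after normalization. The count of 14 only restates the signs of the normalized differences. On that scale every measured repressor and PAR bZIP gene was lower on FULA 1 than on both lungs, and both activators were higher. Tef was at only -0.06 against the saline lung, with probe sets of opposite sign. The urethane lung was the highest array in 10 as deposited and in 12 after normalization. The 14 contrasts share their genes, so they are not independent, and values of different probe sets are not compared as levels; a contrast shows unequal differences and not which gene differed.

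**Figure D4:**
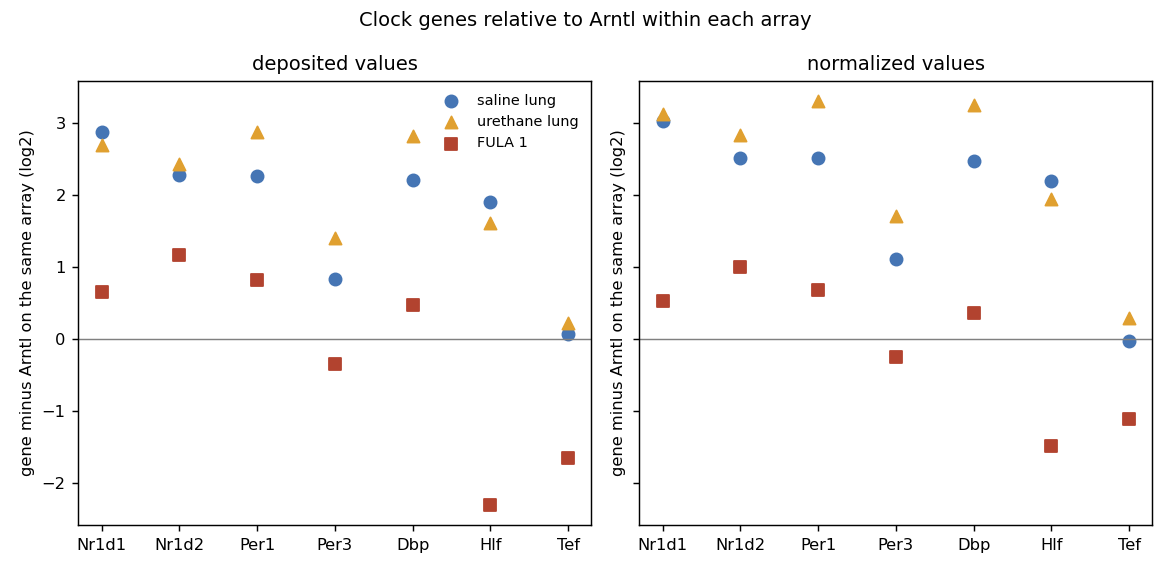
The value of each of 7 clock genes minus that of Arntl on the same array (y axis, log2) is plotted for the deposited values and for the normalized values; colours and markers are the 3 arrays. FULA 1 is lowest for all 7 genes in both panels; the urethane lung lies above the saline lung for Per1, Per3, Dbp, Nr1d2 and Tef and below it for Hlf, and for Nr1d1 the order of the lungs differs between the panels.

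Other core clock genes were on both sides of the saline lung in FULA 1. Of the list, 10 genes were measured. Relative to the saline lung, FULA 1 had 1 of them past 2-fold on the high side and 1 on the low side. The median of the list was 0.24, and the shares over all genes past the floor were 22.6% and 22.0%. Clock, the main partner of BMAL1, was higher by 0.62, and Bhlhe40 and Nfil3, which encode repressors of E-box and D-box genes, by 0.41 and 0.60; these 3 signs held under all 7 other settings. Rorb, a receptor gene known mainly from the nervous system, was higher by 1.78, or at least 1.27 with the mark as its saline value. The receptor gene Rora was lower by 1.01, which a common median brought to -0.00, so its 2-fold call rests on the scaling. The cryptochrome genes, whose products inhibit CLOCK and BMAL1, were at -0.75 for Cry1 and -0.80 for Cry2, and both turned positive with a common median.

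Between the lungs these 10 genes had a median of -0.15, with 0 past 2-fold in either direction. Over all genes past the floor, 3.27% were higher and 1.31% lower. Bhlhe41, a paralogue of Bhlhe40, was at -0.67 (at least 0.15 lower, its urethane value being below the mark) and Bhlhe40 at -0.48. Cry2 was at 0.18 and Cry1 at -0.24. Ciart, a clock-driven repressor, was at 0.02 and Clock at 0.06. For Arntl2 and Rorb both lungs were below the mark, which leaves no size. Against the urethane lung FULA 1 was at least 2-fold higher in 1 of the 10 genes, Rorb at 1.87 (at least 1.29), and lower in 0. The median was 0.46, and the shares over all genes past the floor were 22.1% higher and 19.5% lower.

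Among modifiers of clock proteins, Prkaa1 and Ep300 were well above the saline lung in FULA 1, by at least 2.32 and 1.55 under all 7 other settings. As deposited, 99.5% of all genes past the floor were also at least 2-fold higher. Of 20 listed kinases, ligase subunits and cofactors 16 were measured. In FULA 1 relative to saline 6 were at least 2-fold higher and 0 lower, with a median of 0.61. The shares of all genes past the floor were 22.6% and 22.0%. With a common median 12 of the 16 were higher, where 51.6% of all genes past the floor were. The higher genes were Prkaa1, a catalytic AMPK subunit, at 2.72, the acetyltransferase gene Ep300 at 1.87, Fbxw11, whose ligase targets PER proteins, at 1.40, Hdac3, the deacetylase of the NR1D1 complex, at 1.12, and Prkaa2 at 1.00. Fbxl21 was the other, at 1.49 but at least only 0.45 with the mark as its saline value. The kinase gene Csnk1e, which acts on PER proteins, was at 0.83. Usp2, a clock-controlled deubiquitinase gene, was at -0.61. Between the lungs 2 of the 16 were at least 2-fold higher, where 3.27% of all genes past the floor were. These were Prkaa2 at 1.36 and Prkaa1 at 1.13. The lower count was 0, where 1.31% of all genes past the floor were lower, and Usp2 was at 0.90. Against the urethane lung FULA 1 was at least 2-fold higher in 4 of the 16 and lower in 2, beside 22.1% and 19.5% of all genes. The lower genes were Usp2 at -1.50 and Sirt1 at -1.19, the latter turning to 0.45 with a common median.

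Outputs of the clock went both ways in FULA 1, with 3 of 13 measured genes at least 2-fold higher and 4 lower than in the saline lung (median 0.57). These counts were near the shares of all genes past the floor, 22.6% and 22.0%. Ppargc1a, the gene of a coactivator of mitochondrial genes, was higher by at least 1.99, its saline value being below the mark, and lowest was the cell cycle inhibitor gene Cdkn1a at -2.53. Between the lungs 1 of the 13 was at least 2-fold higher, Gpt2 at 1.62 (at least 1.36), and 0 were lower, with a median of -0.03. Over all genes past the floor, 3.27% were higher and 1.31% lower.

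Genes that respond to glucocorticoids and to acute signals, as Per1 does, are given beside it. In the urethane lung 0 of 12 glucocorticoid genes were at least 2-fold higher and 1 lower, the metallothionein gene Mt2 at -1.19, with a median of -0.04; the highest was the transcription factor gene Zbtb16 at 0.88. Of 13 immediate early and cAMP response genes 0 were past 2-fold in either direction, with a median of 0.12 (-0.01 with a common median), from the kinase gene Sik1 at -0.66 to Egr1 at 0.95. In FULA 1 against saline 4 of 12 glucocorticoid genes passed 2-fold on the low side and 0 on the high side (median -0.71, turning to 0.54 with a common median), among them Sult1a1 at -2.52 (at least 1.98 lower), and 3 of 13 immediate early genes were lower, with Jun at -2.30 (median -0.26, turning to 0.69 with a common median). Beside these counts, 3.27% of all genes past the floor were higher and 1.31% lower in the urethane lung. In FULA 1 against saline 22.6% were higher and 22.0% lower. The part of these responses in the values of the clock genes was not tested.

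Cell markers put the lungs close together and the cell line apart. Between the lungs 5 of 5 cardiac muscle genes lay below 0 in the urethane lung, 2 of them past 2-fold, and their summed linear level went from 138 to 72.0, while that of 6 alveolar type II genes went from 3312 to 3951. All 4 measured proliferation genes also lay below 0 in the urethane lung, 1 of them past 2-fold, with a sum going from 72.6 to 53.1. The summed level of 5 endothelial genes went from 471 to 398. Of 7 leukocyte genes 3 lay above 0 and 4 below in the urethane lung, from the T cell gene Cd3e at -0.36 to the integrin gene Itgax at 0.94. In FULA 1 all 6 alveolar type II, 4 club and 5 endothelial genes were at least 2-fold below the saline lung, and all 4 measured proliferation genes at least 2-fold higher. Of all genes past the floor, 22.0% were lower and 22.6% higher in FULA 1 than in the saline lung. Of 5 alveolar type I genes 3 were at least 2-fold lower, while Aqp5, which encodes an aquaporin, lay 2.49 above it (5.62-fold). The summed levels on FULA 1 were 27.5 for alveolar type II, 16.4 for club, 20.9 for endothelial and 475 for proliferation genes. Above the mark on FULA 1 were 5 of 6 alveolar type II, 2 of 4 club, 3 of 5 endothelial and 1 of 7 leukocyte genes. Of all 22180 genes, 12913 lay above the mark there. The alveolar type II marker Sftpc was at 2.21 on FULA 1, against 11.04 on the saline lung. The part of cell composition and of proliferation in the clock gene values was not tested.

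Among 14092 other genes at or above the floor on at least 1 array, Mon1b was closest to the mean profile of the 9 clock genes over the 3 arrays, at a Euclidean distance of 0.11 (log2), followed by Cry2 at 0.14, Snora2b at 0.15, Slc35b2 at 0.15 and Dtnbp1 at 0.16. The mean profile was 3.58 on FULA 1, 4.21 in saline-treated lung and 4.45 in urethane-treated lung. Cry2, the only clock gene of these 5, was at 3.45, 4.25 and 4.43. A likeness over 3 arrays is a description only.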

How the data were processed

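RNA of 3 samples was read on 1 array each. The deposited values are log2 expression per probe set; the submitters' processing notes name RMA, while the series' design text names GeneSpring 12.5 GX. No source here says which arrays were processed in 1 run. No scanner files were used. The table had 0 columns from samples outside the study.

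From the deposited values, the 3 arrays were brought to a shared distribution by quantile normalization (mean of the sorted columns, 41345 probe sets, tied values at their mean rank). Probe sets with 1 symbol (23521) were named through the platform annotation and updated by Entrez identifier through the RefSeq table of GRCm38.p6 (23328 matched); 1814 with several symbols named no gene and 16010 were unnamed. Probe sets of 1 gene were averaged; Tef had 2 and the other 8 measured clock genes 1 each. Percentile ranks are over the 22180 genes of an array. No test was run, as each group had 1 array; precision is limited by this number of arrays.

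The clock genes and gene lists were chosen with earlier results of these data known. All clock genes are named, genes of the other core clock and modifier lists may be, and of the remaining lists the highest and lowest. Some values were shared by many probe sets. Other settings were the values as deposited, a common median, a lowess curve (span 0.3, statsmodels 0.14.6), quantiles of 1 array or of the lungs alone, a 1.5-fold or 4-fold threshold, other floors, the highest probe set, and values held at the mark. Python 3.11.15, numpy 2.4.6, pandas 2.3.3 and scipy 1.17.1 were used.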

Additional observations from a re-analysis of the deposited data

How the results depend on the processing

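Scaling decided most of what could be said about FULA 1. With the values as deposited, 5 clock genes were at least 2-fold higher in the urethane lung than in the saline lung (median 1.33), and in FULA 1 9 were higher and 0 lower than in either lung (medians 5.65 against the saline lung and 4.04 against the urethane lung). There Nr1d1 was at 4.86, Dbp at 5.36 and Hlf at 2.89 against the saline lung, and Nr1d1 at 3.87, Per1 at 3.85, Dbp at 3.56 and Hlf at 1.99 against the urethane lung; the median of all genes was itself at 4.80 and 3.69 in these comparisons, and at 1.09 between the lungs. With a common median, FULA 1 had 3 higher genes and 1 lower against saline (median 0.76, Dbp at 0.47), and 2 higher and 1 lower than in the urethane lung (median 0.30, Nr1d1 at 0.12, Per1 at 0.11). The count of higher genes in FULA 1, 1 as reported in both comparisons, became 0 with the lowess curve, with the quantiles of the saline lung and at 4-fold, and the count of lower genes became 1 at 4-fold in both. At 1.5-fold, 2 genes were higher in the urethane lung.

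Other floors, the FULA 1 quantiles, the lungs alone, the highest probe set and values held at the mark left these counts within 1.5 times. Counting the shared probe set as Per2, chosen after seeing the data, gave 4 and 5 lower genes in FULA 1 against the saline and urethane lung. Over all genes, the lower calls in FULA 1 against the saline lung went from 2994 to 1785 with a common median and the higher from 3073 to 7058, and the split between the lungs from 409 higher and 164 lower to 215 and 203. No paired analysis was possible because each group holds 1 array and the result comes from no test. Arntl, Npas2 and Tef lie near the background mark in the lungs, which limits their differences.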
